A study of Mus musculus with 30 samples.

Results

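The cadherin switch and the regulators of epithelial-mesenchymal transition (EMT) were followed through 10 genes from mouse embryonic stem cells (ESCs) into embryoid bodies. The genes were taken by gene symbol, not by a cut on their values, but with earlier results of these data known. They are 10 of the 20563 genes in the table. The set holds the adhesion genes Cdh1, Cdh2 and Epcam, the transcription factors Snai1, Snai2, Zeb1, Zeb2 and Twist1, and the products of mesenchymal cells Vim and Fn1. All 10 passed the filter on low values, which asked for 10 or more in 2 or more libraries and left 15712 genes.

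Total RNA of 5 ESC lines was sequenced at day 0, 4 and 8 of embryoid body differentiation, with biological duplicates, 2 libraries in each of 15 groups. The lines were Pali wild type, Pali1 knockout (Pali1-/-), a Pali1/2 double knockout (Pali1-/-, Pali2-/-), C129 wild type and the gene trap line of Aebp2 (Aebp2gt/gt). At day 0 the cells had been kept on gelatin in medium with serum and leukaemia inhibitory factor (LIF). For day 4 and day 8 they had been moved to non-adherent dishes without LIF, where they form embryoid bodies, aggregates in which several embryonic cell types arise side by side. PALI1, PALI2 and AEBP2 are partner proteins of Polycomb repressive complex 2, which places the repressive histone mark H3K27me3 on developmental genes. The mutations are present in every cell from day 0 on, so no comparison separates an effect at day 4 or 8 from one carried over from day 0. The number of clones behind each line is not stated, so a line may be 1 clone, and p-values measure the spread between duplicate cultures of a line. Each Pali knockout was compared with Pali wild type, so these comparisons share their controls. The gene trap was compared with C129 wild type, a pairing read from the order in which the series names its lines.

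E-cadherin (Cdh1) and EpCAM hold the cells of an epithelial sheet together, and ESCs and the early epiblast carry both. When epiblast cells leave the sheet at the primitive streak, or when neural tissue forms, E-cadherin gives way to N-cadherin (Cdh2), an exchange known as the cadherin switch. Snail, Zeb and Twist family factors repress Cdh1 by binding E-box sequences in its promoter, while vimentin and fibronectin are classical products of the mesenchymal state. Fibronectin and vimentin are not confined to mesenchyme: ESCs and neural progenitors make vimentin, and endoderm of the early embryo makes fibronectin.

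Deposited values are normalised counts, whose column totals ran from 15470082 to 18336791, with an estimated 13198293 to 28151943 reads behind them. Aebp2 was at 17.1 to 66.4 in the 6 gene trap libraries and at 1232 to 2784 in the other libraries. A gene total does not separate the deleted PALI transcripts, which were not analysed here. The ESC marker Pou5f1 was at 19672 to 23514 at day 0 and at 2525 to 11979 at day 8, so every day 8 library still held RNA of this pluripotency gene. The double knockout libraries of day 0 replicate 1 and day 4 replicate 1 carry a free-text description of the other culture state. In both pairs Fgf5, a gene of primed epiblast, followed the title, at 58.6 and 60.0 at day 0 and at 2267 and 2130 at day 4, and comparisons with these libraries were repeated without them. Pali wild type day 8 replicate 2 stood apart in 8 visceral endoderm markers, which summed to 12626 there and to 215 in its duplicate. The day 4 replicate 2 of the same line summed to 4499, against 155 in its duplicate. In bulk RNA, fewer cells of a type and less RNA per cell cannot be told apart.

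Per kilobase of exon, Cdh1 was the highest of the 10 genes in 10 of the 15 groups, Vim in 4 and Epcam in 1. Cdh1, Epcam, Vim and Fn1 took the top 4 places in all 15 groups. Cdh1 group means ran from 799 normalised counts per kilobase in C129 wild type at day 8 to 4292 in the gene trap at day 4, and Epcam from 808 to 3304. Cdh2 ran from 8.56 in the day 0 gene trap to 674 in the double knockout at day 8. The transcription factors lay far below. Their highest group means per kilobase were 124 for Twist1, 24.9 for Zeb2, 23.4 for Snai1, 19.7 for Zeb1 and 15.7 for Snai2. Not divided by length, the mean over the 30 libraries was at most 148 for a factor, in Zeb2. It was at least 4460 for Cdh1, Epcam, Vim and Fn1, with Vim the lowest. Fewer reads thus stand behind the values of the factors than behind those genes. Snai1 reached 10 normalised counts in 19 of 30 libraries and Snai2 in 22.

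**Figure D1:**
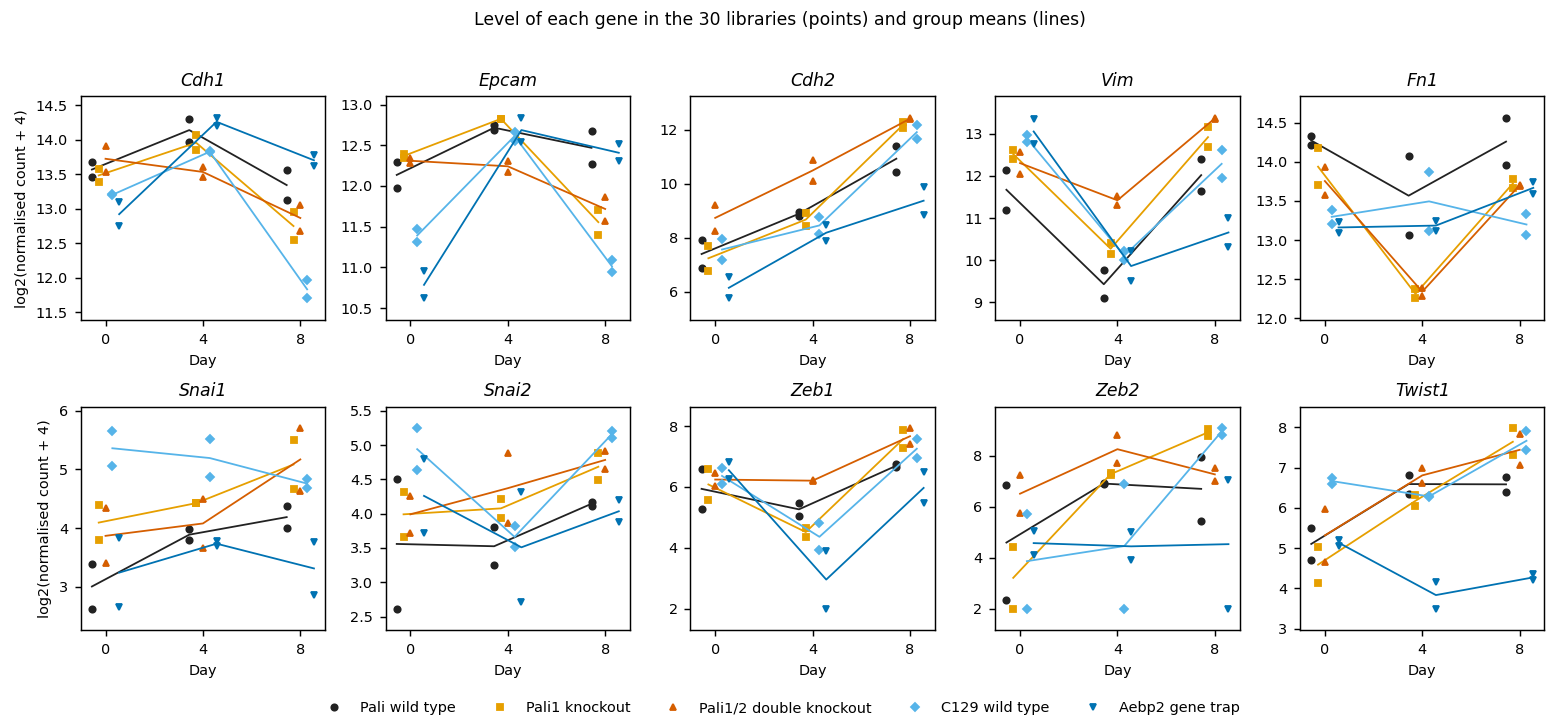
Level of each of the 10 genes by day (x axis, day of differentiation; y axis, log2 of normalised count plus 4). Points are the 30 libraries and lines join the group means of each of the 5 lines. Cdh2 climbs in every line and Vim dips at day 4. At day 8 the gene trap has the lowest Cdh2, Twist1 and Vim and the highest Cdh1, with Pali wild type next to it for Cdh1.

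Cdh1 (chr8:106603351-106670246, plus strand, GRCm38) codes for E-cadherin. In Pali wild type its normalised count was 13138 and 11218 in the 2 libraries at day 0, 20261 and 16077 at day 4 and 8943 and 12056 at day 8. Pali1 knockout cells had 12253 and 10688 at day 0, 17150 and 14733 at day 4 and 7888 and 5998 at day 8. The double knockout had 15425 and 11864 at day 0, 12440 and 11281 at day 4 and 6542 and 8511 at day 8. In all 3 Pali lines both day 8 libraries lay below both day 4 libraries. With 2 libraries a group, separation alone says little, since 42.3% to 70.3% of all tested genes did not overlap between the groups compared, depending on the comparison. C129 wild type had 9454 and 9388 at day 0, 14465 and 14569 at day 4 and 3986 and 3326 at day 8, with both day 8 libraries below every other library of the series. The gene trap had 8723 and 6890.2 at day 0, 20377 and 18889 at day 4 and 14072 and 12614 at day 8, with both day 8 libraries still above both day 0 libraries.

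Epcam (chr17:87635979-87651129, plus strand) codes for an epithelial adhesion molecule that ESCs make in quantity. Its normalised count in Pali wild type was 5005 and 4038 at day 0, 6588 and 6859.7 at day 4 and 4921 and 6522 at day 8. In Pali1 knockout it was 5177 and 5388 at day 0, 7259 and 7246 at day 4 and 3346 and 2702 at day 8. In the double knockout it was 4972 and 5180.5 at day 0, 5070.2 and 4617 at day 4 and 3044 and 3720 at day 8. Both knockouts thus ended with every day 8 library below every day 0 library, while Pali wild type did not. In C129 wild type it was 2540.1 and 2837 at day 0, 6499.9 and 6027 at day 4 and 2168 and 1961 at day 8. In the gene trap it was 1976 and 1570.4 at day 0, 7302 and 5944 at day 4 and 5833 and 5054 at day 8, with both day 8 libraries far above both day 0 libraries.

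Cdh2 (chr18:16588877-16809246, minus strand) codes for N-cadherin, the classical cadherin of neural tissue and mesoderm. Its normalised count in Pali wild type was 114 and 235 at day 0, 442 and 496 at day 4 and 2717 and 1388 at day 8. Pali1 knockout values were 105 and 203 at day 0, 339.8 and 477 at day 4 and 4324 and 5012 at day 8. Double knockout values were 301 and 588 at day 0, 1092 and 1878 at day 4 and 5339.9 and 5535 at day 8. At each later day both libraries were above those of the day before it, which also held in the other lines, and the double knockout had the highest values of the 5 lines on all 3 days. C129 wild type cells had 138 and 246 at day 0, 275 and 436 at day 4 and 3226 and 4584 at day 8. Gene trap values were 49.8 and 88.4 at day 0, 234 and 351 at day 4 and 458 and 943 at day 8, the lowest day 8 values of any line. The antisense gene Gm15485 overlaps Cdh2, and no source used here says whether reads were assigned by strand, so their reads cannot be told apart.

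Set against each other per kilobase of exon, Cdh1 exceeded Cdh2 in all 30 libraries. This rests on the exon length merged over all transcripts, 4.574 kilobases for Cdh1 and 8.066 for Cdh2. The transcripts made here may be shorter. In normalised counts not divided by length, Cdh2 exceeded Cdh1 in C129 wild type day 8 replicate 2, at 4584 against 3326. The ratio of Cdh1 to Cdh2 per kilobase was 203 and 84.2 in Pali wild type at day 0, 80.8 and 57.1 at day 4 and 5.80 and 15.3 at day 8. Pali1 knockout ratios were 205 and 92.8 at day 0, 89.0 and 54.4 at day 4 and 3.22 and 2.11 at day 8. Double knockout ratios were 90.3 and 35.6 at day 0, 20.1 and 10.6 at day 4 and 2.16 and 2.71 at day 8, and its day 4 libraries were already below every other day 4 library. C129 wild type ratios were 120.5 and 67.4 at day 0, 92.9 and 58.9 at day 4 and 2.18 and 1.28 at day 8. Gene trap ratios were 309 and 138 at day 0, 154 and 94.95 at day 4 and 54.2 and 23.6 at day 8, so that its day 8 libraries kept the largest excess of Cdh1 among the day 8 libraries.

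**Figure D2:**
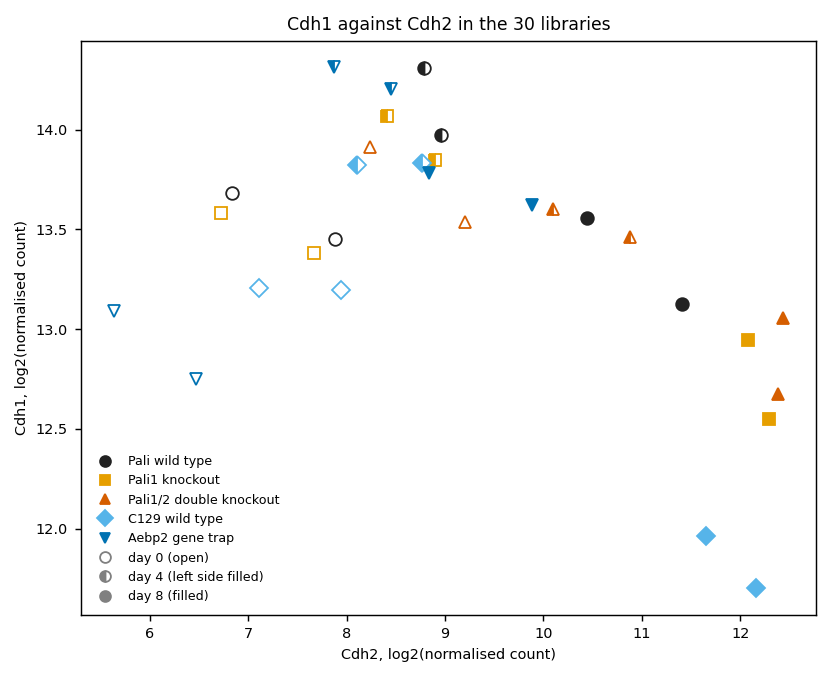
Cdh1 (y axis) against Cdh2 (x axis) in the 30 libraries, both as log2 of the normalised count. Colour marks the line and filling the day (open, day 0; left part filled, day 4; filled, day 8); day 8 libraries of C129 wild type and of both Pali knockouts lie at high Cdh2 and lower Cdh1, and the gene trap at day 8 lies at low Cdh2 and high Cdh1.

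The tests of the course put numbers on these levels. All changes are log2 fold changes with limma's standard error (SE) and adjusted p, and a gene is called where the adjusted p over all genes tested is under 0.05. From day 0 to day 4, 5 of the 10 genes were called in Pali wild type, where 27.3% of all tested genes were. The number was 6 in Pali1 knockout (30.5% of all genes), 3 in the double knockout (27.5%), 4 in C129 wild type (29.1%) and 6 in the gene trap (30.6%). Between day 4 and day 8 it was 3 (2.81%), 7 (14.5%), 5 (7.95%), 6 (30.8%) and 1 (8%) in the same order. Between day 0 and day 8 it was 2 (25.8%), 6 (42.1%), 5 (30.9%), 3 (45.8%) and 4 (31.3%). Over the 5 lines this made 24 of 50 calls by day 4 (14 higher, 10 lower), where 29% of all genes were called, 22 of 50 from day 4 to day 8 (15 higher, 7 lower; 12.8%) and 20 of 50 from day 0 to day 8 (14 higher, 6 lower; 35.2%).

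Cdh2 rose from day 0 to day 8 in all 5 lines. The log2 change was 3.53 (SE 0.49, adjusted p = 4.64e-05) in Pali wild type, 4.95 (SE 0.49, adjusted p = 4.62e-07) in Pali1 knockout, 3.68 (SE 0.49, adjusted p = 2.41e-05) in the double knockout, 4.35 (SE 0.49, adjusted p = 1.15e-06) in C129 wild type and 3.23 (SE 0.49, adjusted p = 7.37e-05) in the gene trap. These 5 calls held whichever library was left out. Most of the rise in Pali1 knockout and C129 wild type came after day 4, at 3.52 (adjusted p = 0.000113) and 3.46 (adjusted p = 4.69e-05) from day 4 to day 8. The gene trap, by contrast, gained 2.04 (adjusted p = 0.00368) by day 4 and then 1.19 (adjusted p = 0.154), a step that did not pass. Without its day 0 replicate 1 the adjusted p of the first step was 0.0506.

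The other steps of Cdh2 were less certain. By day 4 the change was 1.49 (adjusted p = 0.0297) in Pali wild type, 1.43 (adjusted p = 0.0329) in Pali1 knockout, 1.76 (adjusted p = 0.0118) in the double knockout and 0.89 (adjusted p = 0.192) in C129 wild type, where it did not pass. The Pali wild type call was lost without day 4 replicate 1 (1.57, adjusted p = 0.0864), day 4 replicate 2 (1.41, adjusted p = 0.118) or day 0 replicate 1 (0.98, adjusted p = 0.274). The Pali1 knockout call was lost without day 4 replicate 1 (1.68, adjusted p = 0.0614), day 4 replicate 2 (1.19, adjusted p = 0.177) or day 0 replicate 1 (0.97, adjusted p = 0.268). The double knockout call was lost without day 4 replicate 2 (1.37, adjusted p = 0.124), day 0 replicate 1 (1.28, adjusted p = 0.153) or both double knockout libraries named above (1.67, adjusted p = 0.118). From day 4 to day 8 the change was 2.04 (adjusted p = 0.0298) in Pali wild type, lost without day 4 replicate 1 (1.96, adjusted p = 0.131), day 4 replicate 2 (2.12, adjusted p = 0.122) or day 8 replicate 1 (1.56, adjusted p = 0.366). In the double knockout it was 1.92 (adjusted p = 0.0208), lost without day 4 replicate 1 (1.53, adjusted p = 0.2), day 8 replicate 1 (1.95, adjusted p = 0.108), day 8 replicate 2 (1.90, adjusted p = 0.0958) or both double knockout libraries named above (1.53, adjusted p = 0.188).

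Cdh1 had its highest mean at day 4 in 4 of the 5 lines, all but the double knockout. In Pali1 knockout the rise by day 4, at 0.47, was not called, and neither was the day 4 change in the double knockout. The rise by day 4 was 1.34 (SE 0.18, adjusted p = 2.35e-05) in the gene trap, where it held without any 1 library, and 0.62 (adjusted p = 0.0153) in C129 wild type. The C129 call was lost without any 1 of the 4 libraries, at changes of 0.62 to 0.63 and adjusted p up to 0.0692. Pali wild type changed by 0.57 (adjusted p = 0.0268), lost without day 4 replicate 1 (0.41, adjusted p = 0.232) or day 0 replicate 2 (0.46, adjusted p = 0.176). From day 4 to day 8 Cdh1 fell in C129 wild type, at -1.99 (SE 0.18, adjusted p = 9.57e-07), and in Pali1 knockout, at -1.21 (SE 0.18, adjusted p = 0.000258), both held without any 1 library. The fall was -0.80 (adjusted p = 0.024) in Pali wild type, lost without day 4 replicate 1 (-0.63, adjusted p = 0.176) or day 8 replicate 1 (-0.58, adjusted p = 0.348). It was -0.67 (adjusted p = 0.032) in the double knockout, lost without day 4 replicate 1 (-0.60, adjusted p = 0.197), day 4 replicate 2 (-0.74, adjusted p = 0.0742), day 8 replicate 1 (-0.48, adjusted p = 0.306) or both double knockout libraries named above (-0.60, adjusted p = 0.184). In the gene trap the change was -0.56 (adjusted p = 0.071) and did not pass.

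Over the whole course Cdh1 ended lower in 3 lines and higher in 1. The log2 change from day 0 to day 8 was -1.37 (SE 0.18, adjusted p = 8.12e-06) in C129 wild type and -0.86 (SE 0.18, adjusted p = 0.00165) in the double knockout, both held without any 1 library. In Pali1 knockout it was -0.73 (SE 0.18, adjusted p = 0.00352), lost without day 8 replicate 2 (-0.54, adjusted p = 0.0682). Pali wild type had -0.23 (95% interval -0.61 to 0.16, adjusted p = 0.418). In the gene trap it was 0.78 (SE 0.18, adjusted p = 0.00323), lost without day 0 replicate 2 (0.61, adjusted p = 0.0577).

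Epcam took a course like that of Cdh1. By day 4 it had risen in the gene trap, at 1.90 (SE 0.15, adjusted p = 6.64e-08), and in C129 wild type, at 1.22 (SE 0.15, adjusted p = 1.16e-05), both held without any 1 library. The rise was 0.58 (adjusted p = 0.00839) in Pali wild type, lost without day 4 replicate 2 (0.55, adjusted p = 0.0504) or day 0 replicate 2 (0.42, adjusted p = 0.114). In Pali1 knockout it was 0.46 (adjusted p = 0.03), lost without any 1 of its 4 libraries at changes of 0.43 to 0.49 and adjusted p up to 0.128. The double knockout had no rise to call, at -0.07 (adjusted p = 0.798). From day 4 to day 8 Epcam fell by 1.60 on the log2 scale in C129 wild type (adjusted p = 1.25e-06) and by 1.27 in Pali1 knockout (adjusted p = 2.7e-05), held without any 1 library. In the double knockout the step was -0.52 (adjusted p = 0.043), lost without day 4 replicate 1 (-0.46, adjusted p = 0.249), day 4 replicate 2 (-0.59, adjusted p = 0.0868), day 8 replicate 1 (-0.38, adjusted p = 0.347) or both double knockout libraries named above (-0.46, adjusted p = 0.275). From day 0 to day 8 Epcam fell in both knockouts, at -0.81 (SE 0.15, adjusted p = 0.000339) in Pali1 knockout and -0.59 (SE 0.15, adjusted p = 0.00652) in the double knockout, the latter lost without day 8 replicate 1 (-0.45, adjusted p = 0.0932). It rose by 1.62 (SE 0.15, adjusted p = 5.93e-07) in the gene trap, and the change was 0.33 (adjusted p = 0.125) in Pali wild type and -0.38 (adjusted p = 0.0509) in C129 wild type.

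The promoter of Epcam holds the E-box hexamer that Snail and Zeb factors bind. It is shown because, of the member promoters reported here, it alone held more than 1. Promoters of 5 members are reported from the RefSeq table (GRCm38.p6), namely Epcam, Snai1, Vim, Twist1 and Zeb2, the last with 4 start sites. Those of the other members are left out, so nothing is said of hexamers there. Whether any of them also held more than 1 is not reported. The 250 bases before each start were searched for CAGGTG and CACCTG, which are reverse complements, so both strands were covered. Epcam (chr17:87635729-87635978, plus strand) had CACCTG starting 187 bases and CAGGTG starting 19 bases before the start of the gene. Snai1 (chr2:167537945-167538194, plus strand) had CACCTG 126 bases before its start. Neither hexamer was in the windows of Vim, Twist1 and Zeb2. Of all 32851 promoters in that table, 17.2% hold at least 1 and 2.06% at least 2. Both windows are printed below 5′ to 3′, each ending at the base before the start, with the hexamers in capitals.
Epcam: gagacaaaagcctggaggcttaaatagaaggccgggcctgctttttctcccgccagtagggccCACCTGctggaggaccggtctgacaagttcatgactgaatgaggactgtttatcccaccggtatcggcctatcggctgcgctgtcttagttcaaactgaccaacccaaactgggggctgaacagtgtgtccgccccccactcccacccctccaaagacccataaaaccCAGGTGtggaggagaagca
Snai1: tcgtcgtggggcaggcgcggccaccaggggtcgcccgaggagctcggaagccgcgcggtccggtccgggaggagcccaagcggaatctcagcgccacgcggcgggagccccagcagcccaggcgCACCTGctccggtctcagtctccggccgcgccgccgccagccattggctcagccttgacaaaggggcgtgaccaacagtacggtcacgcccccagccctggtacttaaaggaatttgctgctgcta

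Among the transcription factors, only Twist1 had a called step of the course in all 5 lines. Twist1 (chr12:33957671-33959829, plus strand) codes for a basic helix-loop-helix factor of mesoderm and neural crest. Its normalised count in Pali wild type was 21.9 and 41.7 at day 0, 77.9 and 109.8 at day 4 and 80.3 and 106 at day 8. Pali1 knockout cells had 13.6 and 28.9 at day 0, 61.9 and 75.3 at day 4 and 154 and 249 at day 8. The double knockout had 21.3 and 58.8 at day 0, 94.2 and 124 at day 4 and 129.4 and 223 at day 8. In all 3 Pali lines every day 4 and day 8 library lay above both day 0 libraries. C129 wild type had 103 and 92.5 at day 0, 73.9 and 74.2 at day 4 and 235 and 169 at day 8. In the gene trap it was 29.4 and 33.0 at day 0, 14.0 and 7.31 at day 4 and 14.4 and 16.4 at day 8, the only line in which both later days lay below day 0.

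The log2 change of Twist1 from day 0 to day 8 was 3.06 (SE 0.42, adjusted p = 1.64e-05) in Pali1 knockout and 2.13 (SE 0.42, adjusted p = 0.000912) in the double knockout, both held without any 1 library, the latter at 1.47 to 2.78. In Pali wild type it was 1.48 (adjusted p = 0.0154), lost without day 8 replicate 2 (1.29, adjusted p = 0.106) or day 0 replicate 1 (1.07, adjusted p = 0.165). It did not pass in C129 wild type, at 1.00 (adjusted p = 0.0625), or in the gene trap, at -0.86 (adjusted p = 0.138). By day 4 the gene trap had changed by -1.30 (adjusted p = 0.0259), lost without day 4 replicate 2 (-0.97, adjusted p = 0.194), day 0 replicate 1 (-1.38, adjusted p = 0.0694) or day 0 replicate 2 (-1.23, adjusted p = 0.112). The day 4 changes of the Pali lines were 1.49 (adjusted p = 0.0136), 1.59 (adjusted p = 0.00803) and 1.49 (adjusted p = 0.0134) in Pali wild type, Pali1 knockout and double knockout. The Pali wild type call was lost without day 4 replicate 2 (1.25, adjusted p = 0.104) or day 0 replicate 1 (1.08, adjusted p = 0.158). The Pali1 knockout call was lost without day 4 replicate 2 (1.45, adjusted p = 0.057) or day 0 replicate 1 (1.14, adjusted p = 0.118). The double knockout call was lost without day 4 replicate 2 (1.30, adjusted p = 0.1), day 0 replicate 1 (0.84, adjusted p = 0.243) or both double knockout libraries named above (1.03, adjusted p = 0.244). From day 4 to day 8 the change was 1.47 (adjusted p = 0.0258) in Pali1 knockout, lost without day 4 replicate 1 (1.33, adjusted p = 0.136), day 4 replicate 2 (1.60, adjusted p = 0.0828) or day 8 replicate 2 (1.13, adjusted p = 0.237). In C129 wild type it was 1.38 (adjusted p = 0.0184), lost without day 4 replicate 1 (1.38, adjusted p = 0.0826), day 4 replicate 2 (1.39, adjusted p = 0.0664) or day 8 replicate 1 (1.15, adjusted p = 0.115).

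Zeb1 (chr18:5591860-5775467, plus strand) codes for a zinc finger repressor of Cdh1. Its normalised count in Pali wild type was 35.1 and 91.9 at day 0, 29.0 and 40.6 at day 4 and 96.3 and 103 at day 8. In Pali1 knockout it was 43.4 and 92.6 at day 0, 21.3 and 16.6 at day 4 and 150.1 and 232 at day 8. In the double knockout it was 61.9 and 83.0 at day 0, 70.2 and 69.4 at day 4 and 240.1 and 165 at day 8, with its day 4 values inside the day 0 range. In C129 wild type it was 64.2 and 95.1 at day 0, 11.1 and 23.9 at day 4 and 119 and 186 at day 8. Gene trap values were 73.5 and 109 at day 0, 0 and 10.96 at day 4 and 39.9 and 85.1 at day 8, so in these last lines and in Pali1 knockout every day 4 library was the lowest of the course. Zeb1 fell by day 4 in the gene trap, at -3.60 (SE 0.56, adjusted p = 8.78e-05). Its day 4 replicate 1 is listed at 0, and the change was -2.65 without that library and -4.55 without its duplicate, so the call held but its size did not. In C129 wild type the day 4 change was -2.003 (adjusted p = 0.0113), lost without day 4 replicate 1 (-1.56, adjusted p = 0.114) or day 0 replicate 2 (-1.73, adjusted p = 0.0869). In Pali1 knockout it was -1.57 (adjusted p = 0.0422), lost without day 4 replicate 1 (-1.71, adjusted p = 0.1), day 4 replicate 2 (-1.42, adjusted p = 0.165) or day 0 replicate 2 (-1.05, adjusted p = 0.305). After day 4 Zeb1 rose by 3.06 (SE 0.56, adjusted p = 0.00131) in Pali1 knockout, 2.90 (SE 0.56, adjusted p = 0.000753) in C129 wild type and 3.02 (SE 0.56, adjusted p = 0.00301) in the gene trap, and these held without any 1 library. The gene trap value ran from 2.06 to 3.97 with 1 library left out, the lowest without the day 4 library at 0, and its call was lost with only C129 wild type and gene trap libraries in the fit (adjusted p = 0.0504). From day 0 to day 8 only Pali1 knockout was called, at 1.49 (adjusted p = 0.0403), lost without day 8 replicate 1 (1.80, adjusted p = 0.0544), day 8 replicate 2 (1.19, adjusted p = 0.216) or day 0 replicate 1 (0.98, adjusted p = 0.287).

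Zeb2 (chr2:44983632-45117395, minus strand) codes for the related repressor that also acts in neural crest and neural tissue. It was listed at 0 in 4 of 30 libraries and differed widely between duplicates, so its values are given library by library. Pali wild type had 1.09 and 111 at day 0, 119 and 114 at day 4 and 245 and 39.8 at day 8. Pali1 knockout values were 17.3 and 0 at day 0, 157 and 147 at day 4 and 438 and 533 at day 8. Double knockout values were 50.5 and 149.6 at day 0, 206 and 448 at day 4 and 126 and 181 at day 8. The Pali1 knockout was the only Pali line with both day 8 values above all its earlier ones. C129 wild type cells had 48.9 and 0 at day 0, 0 and 116 at day 4 and 542 and 453 at day 8, and the gene trap 29.3 and 13.0 at day 0, 27.8 and 10.9 at day 4 and 0 and 129.6 at day 8. Day 8 was called above day 0 in Pali1 knockout (adjusted p = 0.0129) and in C129 wild type (adjusted p = 0.0225), each with a day 0 library at 0, so no fold is given. Both calls were lost when single libraries were left out, with adjusted p up to 0.116 in Pali1 knockout (without day 8 replicate 2 or day 0 replicate 2) and up to 0.231 in C129 wild type (without either day 8 library or day 0 replicate 2). The antisense gene Zeb2os overlaps Zeb2 and was highest, at 49.2 and 35.8, in the same day 8 C129 libraries.

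The Snail genes stayed low. Snai1 (chr2:167538195-167542814, plus strand), the Snail factor of the primitive streak, was at 2.19 and 6.41 at day 0, 11.8 and 9.88 at day 4 and 12.04 and 16.7 at day 8 in Pali wild type. Pali1 knockout cells had 9.92 and 16.9 at day 0, 17.4 and 17.5 at day 4 and 41.3 and 21.3 at day 8, and the double knockout 16.2 and 6.53 at day 0, 8.65 and 18.6 at day 4 and 20.9 and 48.0 at day 8. Values of C129 wild type were 46.5 and 29.3 at day 0, 41.9 and 25.1 at day 4 and 21.7 and 24.4 at day 8, and the gene trap 10.2 and 2.30 at day 0, 8.89 and 9.74 at day 4 and 9.57 and 3.27 at day 8. C129 wild type was the highest line at day 0 and day 4, and the gene trap the lowest at day 8. Snai2 (chr16:14705852-14709385, plus strand), the Snail factor of neural crest, ran from 2.14 to 34.0 over the 30 libraries with a median of 14.4. No step of the course was called for Snai1 or Snai2 in any line, at SEs of 0.50 and 0.57 on the log2 scale.

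Vim (chr2:13573927-13582826, plus strand) codes for the intermediate filament protein vimentin. In Pali wild type its normalised count was 2341 and 4521 at day 0, 543 and 865 at day 4 and 5408 and 3170.3 at day 8. In Pali1 knockout it was 5431 and 6306 at day 0, 1125 and 1348 at day 4 and 6533 and 9161 at day 8. The double knockout had 4187 and 6083 at day 0, 2540.4 and 2947 at day 4 and 10599 and 10468 at day 8. In all of these lines both day 4 libraries were the lowest of the course. C129 wild type had 7162 and 8034 at day 0, 1028 and 1177 at day 4 and 3943 and 6308 at day 8. The gene trap had 6875 and 10482 at day 0, 719.7 and 1190.1 at day 4 and 1265 and 2050.1 at day 8, and both it and C129 wild type ended with day 8 libraries below their day 0 libraries. By day 4 Vim fell by 2.24 on the log2 scale in Pali wild type (adjusted p = 0.000184), by 2.24 in Pali1 knockout (adjusted p = 0.000145), by 2.78 in C129 wild type (adjusted p = 2.1e-05) and by 3.19 in the gene trap (adjusted p = 3.94e-06), all at an SE of 0.37. The double knockout change was -0.88 (adjusted p = 0.0842) and did not pass. After day 4 Vim rose again by 2.59 (adjusted p = 0.00154) in Pali wild type, 2.65 (adjusted p = 0.000109) in Pali1 knockout, 1.94 (adjusted p = 0.00268) in the double knockout and 2.18 (adjusted p = 0.000234) in C129 wild type. These falls and rises held without any 1 library. The gene trap gained 0.80 (adjusted p = 0.208) and ended below day 0, at -2.40 (SE 0.37, adjusted p = 8.16e-05). The double knockout ended above day 0, at 1.06 (adjusted p = 0.0349), lost without day 8 replicate 1 (1.05, adjusted p = 0.119), day 8 replicate 2 (1.07, adjusted p = 0.111), day 0 replicate 1 (0.79, adjusted p = 0.243) or both double knockout libraries named above (0.79, adjusted p = 0.26).

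Fn1 (chr1:71585520-71653200, minus strand) codes for fibronectin, a matrix glycoprotein and ligand of integrins. Pali wild type was at 20654 and 18989 at day 0, 17244 and 8545 at day 4 and 24186 and 15902 at day 8. Pali1 knockout values were 18546 and 13299 at day 0, 5279.8 and 4879.6 at day 4 and 14024 and 13041 at day 8. In the double knockout it was 15681 and 12184 at day 0, 5354 and 5003 at day 4 and 13269 and 13372 at day 8. Both knockouts dipped at day 4 below all other libraries of the series, and came back by day 8. In C129 wild type it was 9478 and 10677 at day 0, 15015 and 8870.2 at day 4 and 8549 and 10335 at day 8, and the gene trap 9646 and 8687 at day 0, 9726 and 8906 at day 4 and 13689 and 12361 at day 8. Fn1 fell by day 4 in Pali1 knockout, at -1.63 (SE 0.27, adjusted p = 0.000198), and in the double knockout, at -1.42 (SE 0.27, adjusted p = 0.000878). It rose from day 4 to day 8 by 1.41 (adjusted p = 0.00216) and 1.36 (adjusted p = 0.00451), and these 4 calls held without any 1 library. No step was called in the other lines, and none from day 0 to day 8. The antisense gene Apol7d overlaps Fn1.

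**Figure D3:**
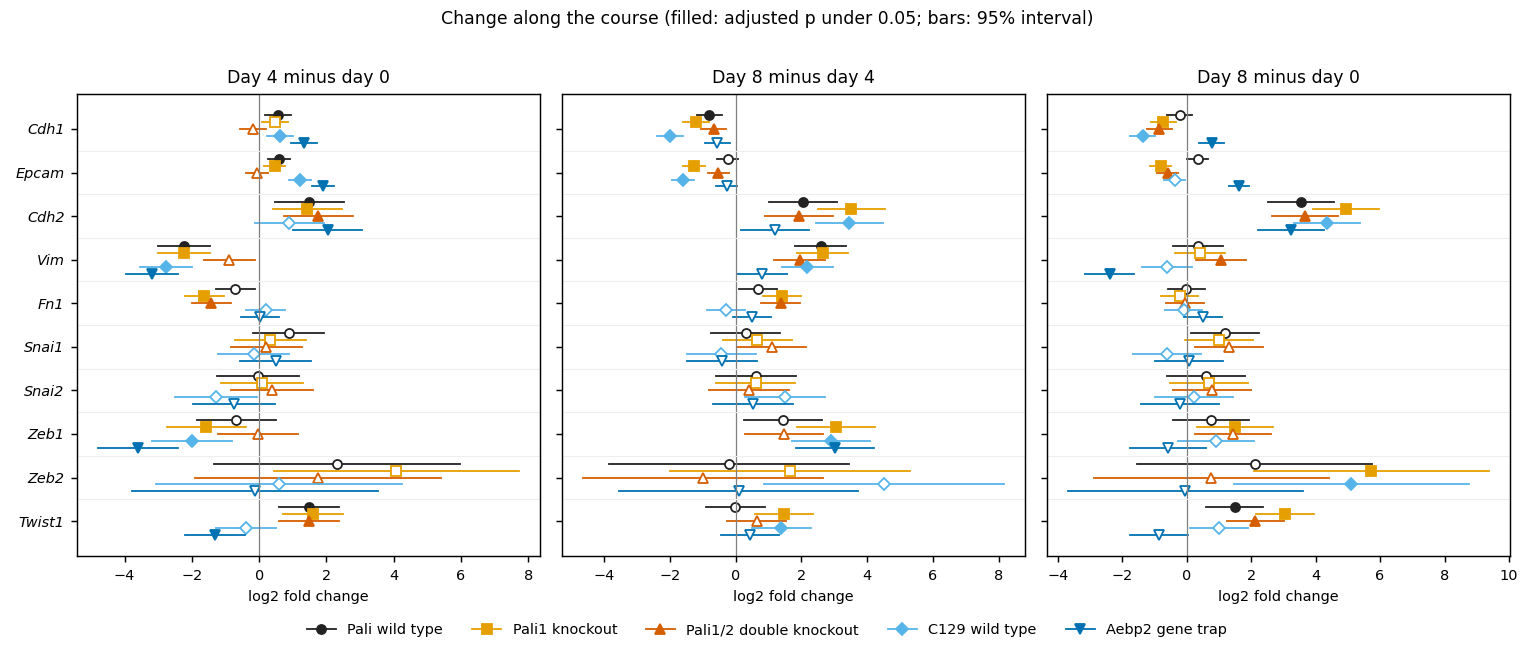
Change of each of the 10 genes between days in each line (x axis, log2 fold change from limma; panels, day 4 minus day 0, day 8 minus day 4 and day 8 minus day 0). Bars are 95% intervals and filled points have an adjusted p under 0.05; Cdh2 is filled in all 5 lines for day 8 minus day 0, and Vim lies left of 0 by day 4 in all 5.

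Pali1 knockout cells ended the course with less Epcam RNA than Pali wild type, and their lower Cdh1 rested on single libraries. At day 8, 2 of the 10 genes were called, where 13.6% of all genes were. Epcam was at 3346 and 2702 against 4921 and 6522, a log2 change of -0.91 (SE 0.15, adjusted p = 0.000703). The groups did not overlap, which was so for 55.8% of all tested genes. The call held without any 1 library, with -0.71 (adjusted p = 0.0187) without Pali wild type day 8 replicate 2, the library with high visceral endoderm markers. Cdh1 was at 7888 and 5998 against 8943 and 12056, a change of -0.59 (SE 0.18, adjusted p = 0.0387). That call was lost without Pali wild type day 8 replicate 2 (-0.38, adjusted p = 0.332) or Pali1 knockout day 8 replicate 2 (-0.40, adjusted p = 0.34). It was also lost with the Pali lines alone in the fit (adjusted p = 0.0781) and in limma without trend and robust estimation (adjusted p = 0.0554). The mesenchymal side did not pass. Cdh2 was at 4324 and 5012 against 2717 and 1388, a change of 1.26 (95% interval 0.23 to 2.29, adjusted p = 0.0993). Twist1 differed by 1.06 (95% interval 0.17 to 1.95, adjusted p = 0.111) and Vim by 0.90 (95% interval 0.13 to 1.67, adjusted p = 0.116). At day 4, where 2.67% of all genes were called, Fn1 was called alone, at 5279.8 and 4879.6 against 17244 and 8545 and a change of -1.26 (SE 0.27, adjusted p = 0.0178). It was lost without Pali wild type day 4 replicate 1 (-0.75, adjusted p = 0.257), Pali1 knockout day 4 replicate 1 (-1.31, adjusted p = 0.0906) or Pali1 knockout day 4 replicate 2 (-1.20, adjusted p = 0.141). At day 0 none of the 10 genes was called by limma (4.79% of all genes), and 2 were at an unadjusted p under 0.05, Snai1 and Vim.

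The double knockout was also called lower in Epcam at day 8, and higher in Vim at day 4 and day 8. Each of these calls rested on single libraries. At day 8, 2 of the 10 genes were called, against 7.21% of all genes. Epcam was at 3044 and 3720 against 4921 and 6522, a change of -0.75 (SE 0.15, adjusted p = 0.00717). The groups did not overlap, which was so for 51.3% of all tested genes. The call was lost without Pali wild type day 8 replicate 2 (-0.55, adjusted p = 0.116) or double knockout day 8 replicate 1 (-0.61, adjusted p = 0.0972). Vim was at 10599 and 10468 against 5408 and 3170.3, a change of 1.35 (SE 0.37, adjusted p = 0.0336). This was lost without Pali wild type day 8 replicate 2 (0.96, adjusted p = 0.288), double knockout day 8 replicate 1 (1.34, adjusted p = 0.151) or double knockout day 8 replicate 2 (1.36, adjusted p = 0.13). At day 4, 2 genes were called, against 2.07% of all genes. Vim was at 2540.4 and 2947 against 543 and 865, a change of 1.99 (SE 0.37, adjusted p = 0.00975). It was lost without Pali wild type day 4 replicate 1 (1.66, adjusted p = 0.117) or double knockout day 4 replicate 2 (1.88, adjusted p = 0.0667), and kept at 2.10 (adjusted p = 0.0433) without both libraries whose descriptions go against their titles. Fn1 was at 5354 and 5003 against 17244 and 8545, at -1.23 (SE 0.27, adjusted p = 0.0279), and was lost without Pali wild type day 4 replicate 1 (-0.72, adjusted p = 0.305), double knockout day 4 replicate 1 (-1.28, adjusted p = 0.0992), double knockout day 4 replicate 2 (-1.18, adjusted p = 0.141) or both double knockout libraries named above (-1.28, adjusted p = 0.11).

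Cdh2 in the double knockout lay above both Pali wild type libraries of the same day on each day, and no day was called. Of all tested genes, 43.1% did not overlap at day 0, 42.3% at day 4 and 51.3% at day 8. The change was 1.34 (95% interval 0.31 to 2.37, adjusted p = 0.175) at day 0, 1.60 (95% interval 0.58 to 2.63, adjusted p = 0.103) at day 4 and 1.48 (95% interval 0.46 to 2.51, adjusted p = 0.0761) at day 8. Each interval lies above 0 and each adjusted p over all genes misses the threshold. At day 0 none of the 10 genes was called by limma, against 3.67% of all genes, and only Cdh2 was at an unadjusted p under 0.05.

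Markers of several cell types differed beside these results. They already differed at day 0. The 8 neural progenitor markers, all in the table, summed there to 5485 and 6159 in Pali1 knockout. Their sums were 6793 and 6933.5 in the double knockout and 4052 and 4428 in Pali wild type. Pluripotency markers summed to 88569 and 86573 and to 77229 and 73945 in these knockouts at day 0, against 103670 and 103480. At day 4 the neural progenitor markers summed to 8584 and 9068 in Pali1 knockout and 10966 and 12006 in the double knockout. Pali wild type had 5554 and 6661. At day 8 they summed to 10945 and 13027 in Pali1 knockout and 13453 and 11837 in the double knockout, against 6472 and 4953. The 8 pluripotency markers went the other way, at 31694 and 26577 and 36808 and 34746 against 61058 and 50295. No marker of either list was at 0 in both libraries of these groups. Primitive streak and mesoderm markers (8 of 8 in the table) summed to 1517 and 1192 and 1155 and 2598 against 560.5 and 587, with Mesp1 at 0 in both Pali wild type libraries. Definitive endoderm markers (5 of 5) differed by more, at 1404 and 947 in Pali1 knockout and 648 and 1528 in the double knockout against 102 and 212, with Cxcr4 at 0 in both Pali wild type libraries. Primed epiblast markers (4 of 4) at day 0 summed to 6654 and 9145 in Pali1 knockout and 15847 and 13441 in the double knockout. Pali wild type had 6551 and 6291. Fibroblast and mesenchyme markers (8 of 8) at day 8 were higher in Pali1 knockout, at 1238 and 1390.5 against 765 and 855. They were lower in the double knockout, at 678 and 714. The part of these cell types in the adhesion results was not tested.

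Aebp2 gene trap embryoid bodies held more Cdh1 and Epcam RNA and less Cdh2, Twist1 and Vim RNA than C129 wild type at day 8. There, 5 of the 10 genes were called, against 20.1% of all genes. Cdh1 was at 14072 and 12614 in the gene trap against 3986 and 3326, a change of 1.87 (SE 0.18, adjusted p = 2.82e-06). Epcam was at 5833 and 5054 against 2168 and 1961, a change of 1.40 (SE 0.15, adjusted p = 7.1e-06). Cdh2 was at 458 and 943 against 3226 and 4584, a change of -2.54 (SE 0.49, adjusted p = 0.00117). Both gene trap libraries were above both C129 libraries for Cdh1 and Epcam and below them for Cdh2, and 55.1% of all tested genes likewise did not overlap there. Twist1 was at 14.4 and 16.4 against 235 and 169, a change of -3.40 (SE 0.42, adjusted p = 2.5e-05), more than for any other member called there. These 4 calls held without any 1 library, with adjusted p up to 0.0328. Vim was at 1265 and 2050.1 against 3943 and 6308, a change of -1.63 (SE 0.37, adjusted p = 0.00378), lost without gene trap day 8 replicate 1 (-1.28, adjusted p = 0.0747) or C129 wild type day 8 replicate 2 (-1.29, adjusted p = 0.0653). Snai1 differed by -1.44 (95% interval -2.50 to -0.39, adjusted p = 0.0506), Zeb1 by -1.29 (95% interval -2.47 to -0.11, adjusted p = 0.121) and Fn1 by 0.47 (95% interval -0.11 to 1.05, adjusted p = 0.269), none of which passed. Pali wild type at day 8 had Cdh1 at 8943 and 12056 and Epcam at 4921 and 6522. The gene trap's Epcam values lay within that Epcam range. The gene trap was not tested against Pali wild type.

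At day 0 Epcam was lower, not higher, in the gene trap. There, 3 of the 10 genes were called, against 13% of all genes, all lower in the gene trap. Epcam was at 1976 and 1570.4 against 2540.1 and 2837, a change of -0.61 (SE 0.15, adjusted p = 0.0134), lost without gene trap day 0 replicate 2 (-0.44, adjusted p = 0.165) or C129 wild type day 0 replicate 2 (-0.53, adjusted p = 0.0946). Snai1 was at 10.2 and 2.30 against 46.5 and 29.3, a change of -2.12 (SE 0.50, adjusted p = 0.00915), lost without gene trap day 0 replicate 2 (-1.53, adjusted p = 0.134) or C129 wild type day 0 replicate 1 (-1.82, adjusted p = 0.11). Twist1 was at 29.4 and 33.0 against 103 and 92.5, a change of -1.53 (SE 0.42, adjusted p = 0.0228), lost without any 1 of the 4 libraries at changes of -1.61 to -1.46. At day 4 Twist1 was called alone, against 9.01% of all genes, at 14.0 and 7.31 against 73.9 and 74.2 and a change of -2.45 (SE 0.42, adjusted p = 0.00174), and held without any 1 library. Twist1 was thus the only one of the 10 genes called lower in the gene trap on all 3 days.

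At day 8 the pluripotency markers summed to 61663 and 56406 in the gene trap against 23328 and 17045 in C129 wild type. Neural progenitor markers summed to 4244 and 5813 against 8175 and 7885, and definitive endoderm markers to 49.5 and 55.2 against 680.4 and 1178. Primitive streak and mesoderm markers summed to 263 and 297 against 823 and 515. Fibroblast and mesenchyme markers (8 of 8) did not follow, at 1802 and 1836 against 1077 and 3436, with Lum at 0 in both gene trap libraries. The part of these cell types in the result was not tested.

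**Figure D4:**
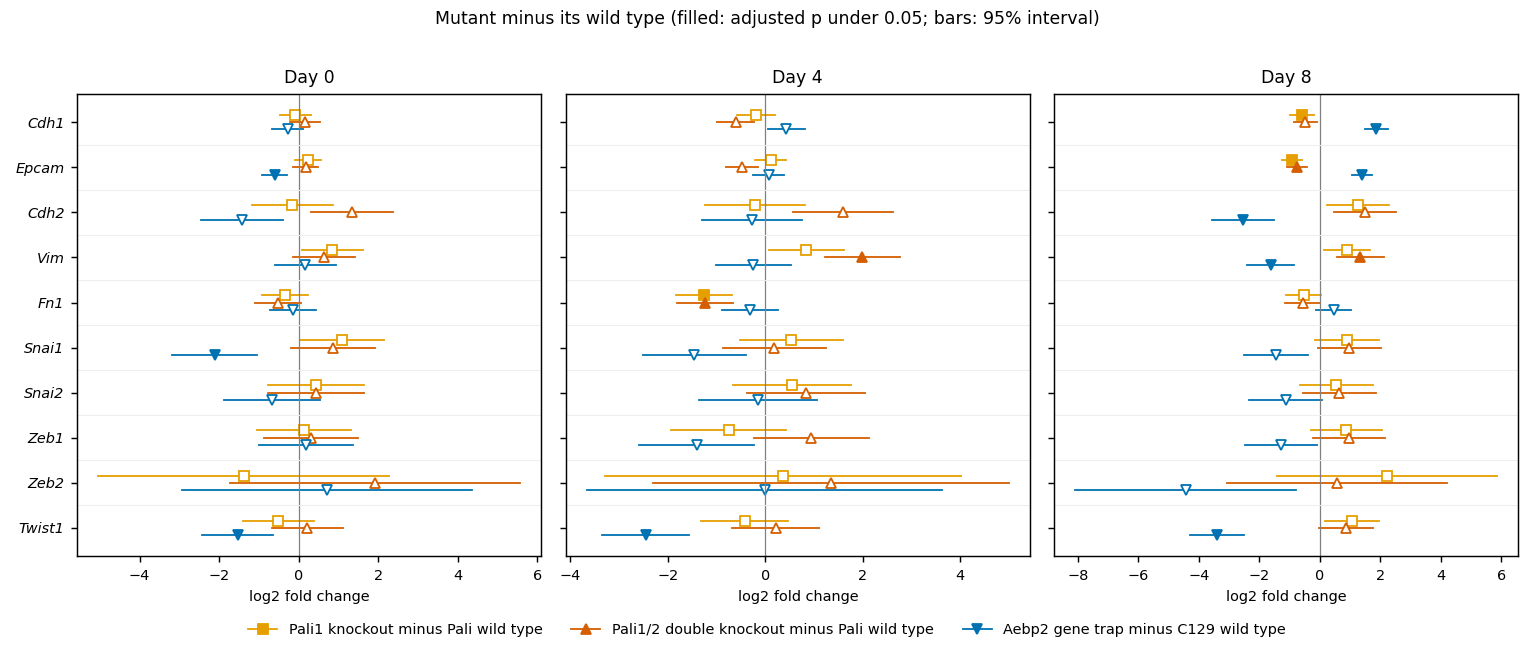
Each mutant line minus its wild type at day 0, 4 and 8 for the 10 genes (x axis, log2 fold change from limma, with 95% intervals; filled points, adjusted p under 0.05). At day 8 the gene trap is filled for higher Cdh1 and Epcam and lower Cdh2, Twist1 and Vim, and both Pali knockouts are filled for lower Epcam.

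The 2 wild type lines also differed from each other. At day 8, 3 of the 10 genes were called between C129 and Pali wild type, against 17.3% of all genes. Cdh1 differed by -1.51 (SE 0.18, adjusted p = 2.34e-05) and Epcam by -1.46 (SE 0.15, adjusted p = 5.02e-06), both lower in C129 and held without any 1 library. Fn1 differed by -1.06 (adjusted p = 0.0119), lost without C129 wild type day 8 replicate 1 (-0.92, adjusted p = 0.0787) or Pali wild type day 8 replicate 1 (-0.76, adjusted p = 0.155). At day 0, 5 genes were called, against 21.1% of all genes. Epcam was lower in C129, at -0.74 (adjusted p = 0.00192), and Snai1 higher, at 2.35 (adjusted p = 0.00257), and both held. Twist1 was at 1.56 (adjusted p = 0.0128), lost without C129 wild type day 0 replicate 1 (1.49, adjusted p = 0.0856) or Pali wild type day 0 replicate 1 (1.16, adjusted p = 0.151). Vim was at 1.22 (adjusted p = 0.0236), lost without C129 wild type day 0 replicate 1 (1.30, adjusted p = 0.0803), C129 wild type day 0 replicate 2 (1.14, adjusted p = 0.107) or Pali wild type day 0 replicate 1 (0.75, adjusted p = 0.276). Fn1 was at -0.98 (adjusted p = 0.0162), lost without C129 wild type day 0 replicate 1 (-0.89, adjusted p = 0.114), Pali wild type day 0 replicate 1 (-0.92, adjusted p = 0.0931) or Pali wild type day 0 replicate 2 (-1.04, adjusted p = 0.0537). At day 4 none of the 10 genes was called by limma, against 15.9% of all genes, and only Snai1 was at an unadjusted p under 0.05.

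Whether the lines changed by different amounts over the course was tested in the same fit, as the difference between a line's log2 change and that of its wild type. From day 0 to day 8, 1 of the 10 genes was called for Pali1 knockout (5.73% of all genes), 1 for the double knockout (1.12%), 4 for the gene trap (15.3%) and 2 for C129 against Pali wild type (14.2%). Cdh1 and Epcam ended with more RNA relative to day 0 in the gene trap than in C129 wild type, by 2.15 (SE 0.26, adjusted p = 6.24e-05) and 2.00 (SE 0.22, adjusted p = 3.15e-05). For Epcam the change in Pali1 knockout minus that in Pali wild type was -1.15 (SE 0.22, adjusted p = 0.0064), with a fall called in the knockout and no change called in Pali wild type. For Cdh1 the change in C129 minus that in Pali wild type was -1.14 (SE 0.26, adjusted p = 0.00666), again with a fall called in the former only. These 4 held without any 1 library, and the other 4 were each lost without 1 library or more. From day 0 to day 4 none of the 10 genes was called by limma in any of the 4 tests, where 0.426%, 0.477%, 1.03% and 8.99% of all genes were. At an unadjusted p under 0.05 there were 1, 3, 2 and 3 genes in the same order. Cdh2 was called in none of the 8 tests.

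Other genes of adhesion and EMT were read from lists drawn up around these 10 genes, at day 8. Tested were 14 of 16 other cadherins, 6 of 7 catenins, 18 of 20 other EMT factors, 21 of 24 matrix genes, 12 of 13 fibronectin receptors and every gene of the other lists. Of all genes tested, 7.07% were higher and 6.52% lower in Pali1 knockout than in Pali wild type. In Pali1 knockout 4 of the 23 tested epithelial regulators and polarity genes were lower and none higher than in Pali wild type, with a list median of -0.60 against 0.04 for all genes. Ap1m2, an epithelial sorting adaptor, was at 336 and 294 against 919 and 1076 (log2 fold change -1.65, SE 0.23, adjusted p = 0.000141). Rab25, a GTPase of epithelial recycling, was at 85.9 and 89.4 against 276 and 352 (log2 fold change -1.78, SE 0.28, adjusted p = 0.000462). The same 4 genes were lower without Pali wild type day 8 replicate 2, where 7.43% of all genes were called and the list median was -0.22. Tight junction and desmosome genes gave 1 higher and 3 lower of 21, and 0 and 2 without that library. Cldn4, a claudin of tight junctions, was at 1021 and 734 against 2079 and 1986 (log2 fold change -1.23, SE 0.21, adjusted p = 0.00098), and at -1.26, adjusted p = 0.00957 without that library. Among the other classical cadherins, 2 of 14 were higher and 1 lower, and 1 and 0 without it. Cdh11, a cadherin of mesenchyme, was at 1114 and 1426 against 487 and 286 (log2 fold change 1.75, SE 0.34, adjusted p = 0.00203). Cdh3, P-cadherin of epithelia, was at 1498 and 1263 against 2530.4 and 2655 (log2 fold change -0.91, SE 0.22, adjusted p = 0.00927), a call lost without it (-0.88, adjusted p = 0.0636). Of 6 tested catenins 1 was lower, Ctnna1, lost without that library (-0.34, adjusted p = 0.0856).

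On the mesenchymal side, 5 of 21 tested matrix genes and markers were higher in Pali1 knockout and none lower, and 4 without that library. Sparc, a matrix protein, was at 5114 and 5446 against 2498 and 3485 (log2 fold change 0.84, SE 0.16, adjusted p = 0.00231). Fbn1, which codes for fibrillin, was at 297 and 824, while both Pali wild type libraries list it at 0. Fibronectin receptor genes gave 4 higher and 1 lower of 12, and 4 and 0 without that library. Itgb8 was at 306 and 361 against 106 and 90.0 (log2 fold change 1.72, SE 0.31, adjusted p = 0.00115) and Itgb5 at 2334 and 2196 against 1312 and 1554 (log2 fold change 0.66, SE 0.13, adjusted p = 0.00226). Genes of the TGF-beta pathway, an inducer of EMT, gave 4 higher and 3 lower of 15, and 4 and 1 without it, with the receptor Tgfbr1 at 3358 and 3286 against 2253 and 1975 (log2 fold change 0.65, SE 0.10, adjusted p = 0.000463). Of 18 other EMT transcription factors, 2 were higher and 2 lower, and 2 and 1 without it. Gsc, a factor of the primitive streak's organizer, was at 203 and 142 against 35.1 and 15.6 (log2 fold change 2.65, SE 0.47, adjusted p = 0.000994).

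The double knockout at day 8 gave fewer calls, with 4.13% of all genes higher and 3.08% lower. Epithelial regulators were lower in 6 of 23 and higher in none, with a list median of -0.58, and lower in 3 without Pali wild type day 8 replicate 2, where 2.15% of all genes were called. Rab25 was at 60.5 and 74.8 (log2 fold change -2.15, adjusted p = 0.000479) and Ap1m2 at 282 and 375 (log2 fold change -1.60, adjusted p = 0.000644), both called without that library too. Tight junction and desmosome genes were lower in 3 of 21 and higher in none, and lower in 2 without it, with Cldn4 at 553 and 664 (log2 fold change -1.74, adjusted p = 0.000323) and Cldn3 at 112 and 125 (log2 fold change -1.21, adjusted p = 0.00184). Other cadherins gave 1 higher and 1 lower, matrix genes 3 higher, other EMT factors 3 higher, fibronectin receptors 1 higher and the TGF-beta pathway 1 higher. Without that library these counts were 0 and 0, 1, 1, 0 and 1, and no catenin was called with or without it. Cdh11 was at 1022 and 797 (log2 fold change 1.27, adjusted p = 0.0305), a call lost without it (0.89, adjusted p = 0.281).

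In the gene trap the related lists gave calls on the other side, where 9.59% of all genes were higher and 10.6% lower. Tight junction and desmosome genes were higher in 8 of 21 and lower in none, and epithelial regulators higher in 9 of 23 and lower in 1, with a list median of 1.27 against -0.01 for all genes. Cldn4 was at 2716 and 2629 against 827 and 723 (log2 fold change 1.78, SE 0.21, adjusted p = 1.93e-05) in the gene trap against C129 wild type. Jup, the catenin of desmosomes, was at 148 and 143 against 42.5 and 38.4 (log2 fold change 1.75, SE 0.31, adjusted p = 0.000629), 1 of 2 catenins higher, with 1 lower. Ap1m2 was at 1134 and 883 against 381 and 295 (log2 fold change 1.57, SE 0.23, adjusted p = 9.79e-05). Of the 18 other EMT transcription factors 10 were lower and 1 higher, with a list median of -1.27. Prrx1, a factor of mesenchyme, was at 17.2 and 25.0 against 122 and 209 (log2 fold change -2.72, SE 0.47, adjusted p = 0.00047), and Foxc1, a factor of paraxial mesoderm, at 11.2 and 10.6 against 60.4 and 175 (log2 fold change -2.85, SE 0.52, adjusted p = 0.000713). The other cadherins gave 1 higher and 4 lower of 14. Cdh3 was at 3176 and 2564 against 1648 and 1110.1 (log2 fold change 1.07, SE 0.22, adjusted p = 0.00176) and Cdh11 at 148 and 222 against 1416 and 736 (log2 fold change -2.47, SE 0.34, adjusted p = 5.96e-05), so P-cadherin took the direction of Cdh1 and cadherin-11 that of Cdh2.

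Matrix genes and markers were split in the gene trap, with 3 higher and 4 lower of 21. Mmp2, a matrix protease, was at 1087 and 1306 against 2960 and 2737 (log2 fold change -1.25, SE 0.24, adjusted p = 0.00111). Fibronectin receptors gave 2 higher and 4 lower of 12, with Itgb5 at 1110 and 1458 against 3029 and 2617 (log2 fold change -1.14, SE 0.13, adjusted p = 9.93e-06). The TGF-beta pathway gave 3 higher and 5 lower of 15, with Tgfbr1 at 1733 and 1608 against 3024 and 3030 (log2 fold change -0.86, SE 0.10, adjusted p = 1.93e-05) and Eng, a co-receptor, at 310.2 and 332 against 138 and 98.4 (log2 fold change 1.43, SE 0.17, adjusted p = 1.93e-05).

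**Figure D5:**
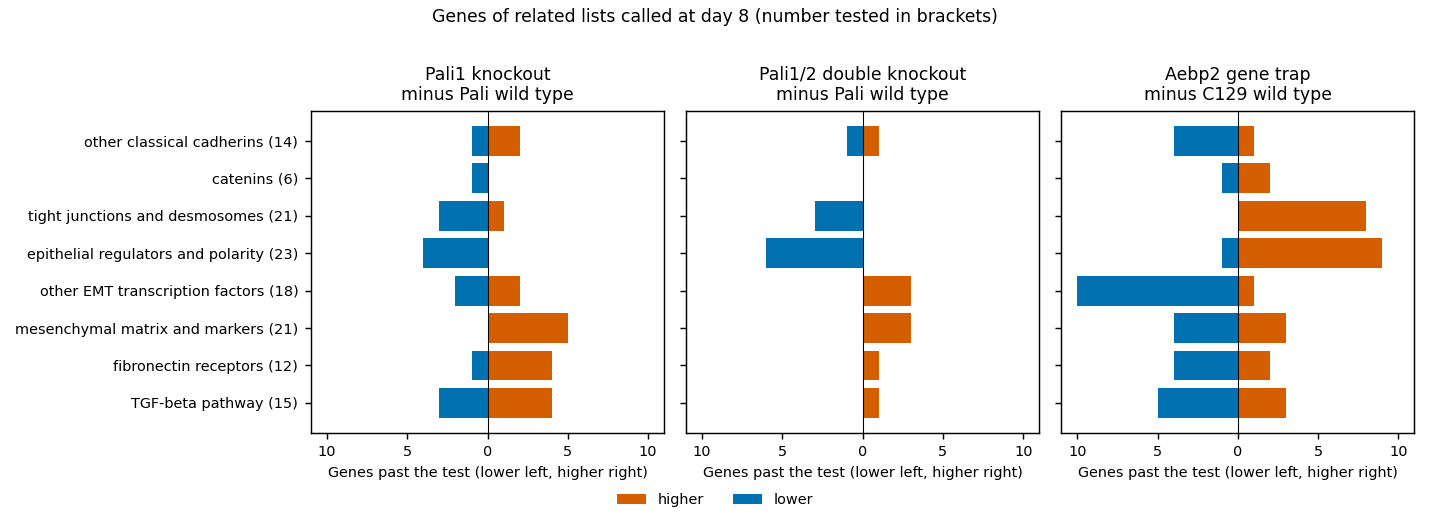
Number of genes called higher or lower at day 8 in each of 8 lists related to adhesion and EMT, for the 3 mutant lines against their wild type (x axis, number of genes; bars start at 0). In the gene trap, epithelial lists extend to the higher side and the list of other EMT transcription factors to the lower side with 10 genes; the 2 Pali knockouts show fewer calls.

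Over the 15 groups, few neighbouring levels were separated beyond their spread. Ordered by group mean, 11 of 14 neighbouring pairs overlapped for Cdh1, whose highest mean was 5.37 times its lowest. For Cdh2 it was 10 of 14 at 78.7 times, and for Twist1 9 of 14 at 19 times. Epcam had 11 at 4.09 times, Vim 12 at 15 times and Fn1 12 at 3.95 times. Snai1 and Zeb1 had 11 each, Zeb2 13 and Snai2 all 14, so the order of the Snai2 levels is not resolved. The 4 highest groups of Cdh1 were the day 4 groups of the gene trap, Pali wild type, Pali1 knockout and C129 wild type.

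Likeness between members ran from strong to none. Pearson's r over the 15 group means, on log2 of the value plus 4, was highest between Cdh1 and Epcam, at 0.86, followed by 0.83 between Zeb1 and Vim and 0.82 between Cdh2 and Zeb2. Zeb2 was at 0 in 4 libraries and its duplicates differed by up to 5.06 on that scale, so its group means are uncertain. Between Cdh2 and Twist1 r was 0.71, below the 90th percentile of all ranked genes for Cdh2. The lowest was -0.85 between Cdh1 and Snai2, whose order of levels is not resolved, followed by -0.80 between Cdh1 and Zeb1 and -0.76 between Epcam and Vim. Cdh1 and Cdh2 themselves gave -0.49, Epcam and Cdh2 -0.11 and Cdh2 and Vim 0.21. Fn1 ran from -0.295 to 0.298 with the other members. The 15 points share lines and days, and no p is given. Of 8810 genes ranked, those most like Cdh1 were Pdzd4 (0.93), Arhgef18 (0.92), Them6 (0.91), Utf1 (0.91) and Gclm (0.90). Fzd1 (0.98), Plat (0.97), Ptn (0.97), Ptprn2 (0.97) and Evl (0.96) were most like Cdh2. Epcam ran closest to Cdh3 (0.95), Bspry (0.94), Rbpms (0.94), Gstt2 (0.92) and Cds1 (0.92). Vim ran closest to Tppp3 (0.88), Ap1m1 (0.88), Vegfc (0.87), Spata7 (0.87) and Fgf10 (0.87). The 10th and 90th percentiles of r over all ranked genes were -0.44 and 0.44 for Cdh1, -0.74 and 0.75 for Cdh2, -0.43 and 0.45 for Epcam and -0.48 and 0.45 for Vim.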

How the data were processed

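Total RNA depleted of ribosomal RNA was made into strand-marked libraries and sequenced on a HiSeq 2500, per the labels' protocols. The authors deposited 1 table of normalised counts, a signal per gene and library that need not be whole. Named without a role, per the submitters' processing notes, are the build mm10 and the tools DESeq2, HISAT2 2.0.5 and kallisto 0.43.1. No source used here gives the annotation. Of low values, those under 8 steps, 82.3 to 86.1% per library were whole multiples of the value of 1 read within 0.001 of a step, so whole reads were not recovered and no count model was run.

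Groups follow the sample titles. Values were taken as log2(value + 4), which understates changes of low genes, for genes at 10 or more in at least 2 libraries. A linear model with 15 group means over 30 libraries was fitted in limma 3.58.1 (R 4.3.3) with trend and robust estimation, leaving 15 residual degrees of freedom. P-values are two-sided and adjusted by Benjamini-Hochberg over all 15712 genes in each of 35 contrasts, with a threshold of 0.05. The procedure was tested on simulated data. Alternatives were other pseudocounts (1 and 16), filters, scalings, variance moderation, subsets of lines, the replicate block and each library left out. Without Pali wild type day 8 replicate 2, list counts were repeated, a choice made after seeing the data.

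The 10 genes, the related lists and the marker lists were chosen with earlier results of these data known. From each list, up to 2 called genes per direction with the lowest adjusted p were open to naming, if a group mean reached 50. Genes of like pattern were the 5 with the highest r among genes with a mean of at least 50 whose duplicates differed by at most 4-fold. Coordinates and exon lengths are from GENCODE M21 on GRCm38 and promoters from RefSeq on GRCm38.p6.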

Additional observations from a re-analysis of the deposited data

Results flagged for a closer look

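These 8 values were picked out because the change of a gene from day 0 to day 8 differed between a line and its comparison line by a direct test of the difference (limma, adjusted over all genes tested). Cdh1 changed by 2.15 more on the log2 scale in the Aebp2 gene trap than in C129 wild type (SE 0.259, adjusted p = 6.24e-05). Epcam changed by 2.00 more (SE 0.216, adjusted p = 3.15e-05). The same difference was -1.86 for Twist1 (SE 0.599, adjusted p = 0.0432) and -1.79 for Vim (SE 0.517, adjusted p = 0.0262). Both gene trap libraries at day 8 were above both at day 0 for Cdh1 and Epcam, and both C129 wild type libraries below. The Twist1 difference was lost without any 1 of the 8 libraries, at -2.10 to -1.63 and adjusted p of 0.0636 to 0.123. The Vim difference was lost without gene trap day 8 replicate 1 (-1.44, adjusted p = 0.129), gene trap day 0 replicate 2 (-1.49, adjusted p = 0.108), C129 wild type day 8 replicate 2 (-1.45, adjusted p = 0.125) or C129 wild type day 0 replicate 1 (-1.71, adjusted p = 0.0821).

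In the Pali lines, the Epcam difference was -1.15 for Pali1 knockout minus Pali wild type (SE 0.216, adjusted p = 0.0064) and -0.925 for the double knockout minus Pali wild type (SE 0.216, adjusted p = 0.0468). Both use the same Pali wild type libraries. The former held without any 1 library, with adjusted p up to 0.0438. The latter was lost without Pali wild type day 8 replicate 2 (-0.72, adjusted p = 0.236), Pali wild type day 0 replicate 2 (-0.77, adjusted p = 0.178) or any double knockout library of day 0 or 8 (-1.07 to -0.78, adjusted p of 0.0538 to 0.198).

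For C129 minus Pali wild type the difference was -1.14 for Cdh1 (SE 0.259, adjusted p = 0.00666) and -0.713 for Epcam (SE 0.216, adjusted p = 0.0346). The Cdh1 difference held without any 1 library, with adjusted p up to 0.0382. The Epcam difference was lost without C129 wild type day 8 replicate 2 (-0.64, adjusted p = 0.123), either C129 wild type library of day 0 (-0.79 and -0.63, adjusted p = 0.053 and 0.11), Pali wild type day 8 replicate 2 (-0.51, adjusted p = 0.161) or Pali wild type day 0 replicate 2 (-0.56, adjusted p = 0.152).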

How the results depend on the processing

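No call of the 10 genes changed sign under any alternative run. Of the 350 log2 changes, TMM rescaling left all 350 on their side of the threshold, and upper-quartile rescaling added 1 call. A pseudocount of 1 lost 3 calls, and one of 16 lost 1 and added 9. No filter on low values lost 5, and limma without trend and robust estimation lost 4 and added 1. A filter at a mean of 50, which drops Snai1 and Snai2, added 3 calls among 280 values. With libraries of the same parent line only, 16 calls were lost and 3 added. The count for C129 against Pali wild type then went from 8 to 5, and that of course differences from 8 to 5; this fit has fewer libraries. Leaving out 1 library at a time gave 20 to 24 calls by day 4, 19 to 22 from day 4 to day 8 and 17 to 21 from day 0 to day 8. It gave 2 to 3 calls for Pali1 knockout, 2 to 4 for the double knockout, 6 to 10 for the gene trap, 5 to 8 for C129 against Pali wild type and 5 to 9 for course differences. Where a group then holds 1 library, that library is assumed to vary like the others. Without both double knockout libraries whose descriptions go against their titles, an alternative chosen after seeing the data, 8 of 70 values lost their call and 1 gained one.

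No label ties libraries of the same replicate number to each other. Over 105 pairs of groups, the correlation of same-numbered deviations ran from -0.0785 to 0.109, with a median of 0.0227. With the replicate number as a block, Pali1 knockout had 5 calls in place of 3 and the double knockout 7 in place of 4, and no call was lost. The added calls were higher Cdh2 in the double knockout on all 3 days (adjusted p = 0.0365, 0.0204 and 0.0147 at day 0, 4 and 8) and higher Cdh2 and Vim in Pali1 knockout at day 8 (adjusted p = 0.0206 and 0.0374). Replicate 2 was the higher of the pair in 14 of 15 groups for Cdh2, 13 for Vim, 12 for Zeb1 and Twist1 and 3 for Cdh1 and Fn1, and in 5 to 8 for the other 4 genes. An SE of 0.50 for Snai1, 0.57 for Snai2 and 1.73 for Zeb2 on the log2 scale limits what can be detected. Snai1 and Snai2 had means of 17.8 and 15.9, while Zeb2 had 148 and duplicates that differed by up to 5.06 on the log2(value + 4) scale.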
